A study of Homo sapiens with 17 samples.

Results

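The genes examined here encode the constitutive proteasome. They were all the genes of the deposited mRNA-seq table whose symbol consists of PSMA, PSMB, PSMC or PSMD and a number, without the immunoproteasome genes PSMB8, PSMB9 and PSMB10, which gave 36 of the 26457 genes listed. Of these, 8 encode the alpha ring, 8 the beta ring, 6 the ATPases of the base, 3 the non-ATPase base subunits, 8 the lid, and 3 (PSMD5, PSMD9 and PSMD10) chaperones of base assembly that carry the same gene root but are not part of the finished particle.

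The RNA came from SW480 cells, a human colon cancer line that expresses a missense mutant p53 (mutp53). The cells carried a stable, doxycycline-inducible short hairpin RNA (shRNA). It targeted either LacZ, in the control, or p53, in the cells called mutp53-depleted, and cells of both kinds were grown in puromycin and induced with doxycycline. Each kind was collected without TNF-α (0 h) and after treatment with 12.5 ng/ml TNF-α for 16 h. This gave 4 groups of 2 biological replicates, called A and B. Since each shRNA is represented by 1 stable line, the effect of the shRNA and any other difference between these lines cannot be told apart, and the sources used here do not say whether the lines are clones or pools.

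The 26S proteasome degrades proteins tagged with ubiquitin. Its 20S core is a barrel of stacked rings in which the outer alpha rings gate the entrance and the inner beta rings hold the proteases, and its 19S regulatory particle is made of a base, whose ring of ATPases unfolds the substrate, and a lid, which removes the ubiquitin chain. Subunit genes are commonly transcribed together under the factor NRF1 (gene NFE2L1), which restores their expression when the proteasome is inhibited, and mutant p53 has been described as an activator of these genes in cancer cells.

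Reads on genes ranged from 6108488 to 13809578 per library, and 1 read was worth between 0.67 and 1.51 normalized reads. Of 10 colon epithelial markers, 7 were detected at a mean of at least 2.5, with KRT20 and LGALS4 near 0 and CDX1 at 0 reads, and the summed level of the list ran from 66178 to 70710 in control cells at 0 h and from 52456 to 52480 in mutp53-depleted cells. After TNF-α it ran from 56297 to 56382 and from 42732 to 43897. Fibroblast markers summed to 38.5 and 39.4 normalized reads in control and 158.1 and 175.5 in mutp53-depleted cells at 0 h, and to 31.9 and 28.5 against 56.2 and 59.2 at 16 h, with COL1A1 and PDGFRB making up the rise and DCN at 0 reads. Endothelial markers summed to between 5.69 and 7.26 in control and between 17.6 and 28.8 in depleted cells, and leukocyte markers, mostly CD14, to 37.7 and 21.2 against 14.7 and 15.1 at 0 h and 13.5 and 9.96 against 8.39 and 4.94 at 16 h, with PTPRC at 0 reads. The sums of all 4 lists thus moved with the shRNA, and all but the endothelial sum with TNF-α, and their part in the results was not tested. Single members did not all go with their sum. EPCAM, CDH1, KRT8, KRT18 and VIL1 were lower in depleted cells at both times, but KRT19 was higher (log2 fold changes of 0.259 and 0.255), as was CDX2 at 16 h (0.212). KRT19 also rose with TNF-α in control cells (0.221). CD14 did not pass the test for depletion at either time (limma adjusted p = 0.0791 and 0.127). In bulk RNA such as this, fewer cells of a type and less RNA per cell cannot be told apart.

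Proteasome subunit mRNAs were abundant. Of the 36 genes, 34 had a mean over the 8 libraries that reached the filter of 2.5 normalized reads. PSMA8, an alpha subunit of the testis, had 0 reads in every library, which allows up to 4.54 normalized reads in the shallowest one, and PSMB11, the beta subunit of thymic epithelium, had 1 read, in control 0 h replicate B. PSMC1, an ATPase of the base, lay just above the filter with between 0.97 and 4.94 normalized reads per library. Of the 1524 stretches of 50 bases, the length of a read, within the part of its transcript that the table's gene model covers, 97.2% also occur elsewhere in the genome (hg38), and its value is therefore not read as a level. The corresponding share was 42.5% for PSMC6, 27.6% for PSMA6, 23.4% for PSMD4, 11.3% for PSMD2 and at most 4.12% for each of the others, so that the levels of those 4 genes are uncertain to an extent that depends on how such reads were counted.

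Per kilobase of gene model, the 33 remaining genes in control cells at 0 h had a median of 856 normalized reads, against 79.1 over all 14800 genes tested. PSMA7, an alpha ring subunit, was highest with 3973 and 3634 normalized reads per kilobase in the 2 replicates, followed by the beta ring genes PSMB4 (2300 and 2231) and PSMB6 (1975 and 1969). These 3 were each separated from the next gene in the order by more than the spread of their replicates. PSMB7 and PSMB3, which came next, were not separated from each other. At the lower end stood PSMC6 (180 and 163) and the base chaperone PSMD9 (180 and 160), which overlapped. By subcomplex, the median level per kilobase was 1587 for the beta ring, 1037 for the alpha ring, 876 for the ATPases other than PSMC1, 693 for the lid, 573 for the non-ATPase base subunits and 207 for the chaperones. Subunits that occur in equal numbers in the finished particle thus differed widely in mRNA per length.

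To ask how depletion of mutp53 affected these genes, mutp53-depleted cells were compared with control cells at 0 h. Most subunit mRNAs were more abundant in the depleted cells, by less than 2-fold. With limma on log2(value + 1), 22 of the 34 genes tested were higher and 2, PSMA2 and PSMC2, were lower at an adjusted p under 0.05 (Benjamini-Hochberg over 14800 genes). Over all genes tested, 27.3% were higher and 25.2% lower, and among the 4760 abundant genes (mean 500 normalized reads or more), whose level is more like that of the subunits, 39% were higher and 29% lower. The median difference of the 34 on the log2 scale was 0.32, against 0.03 over all genes and 0.08 over the abundant ones.

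After 16 h of TNF-α, the same comparison gave 13 genes higher and 3 lower of the 34, with a median log2 fold change of 0.16, against 24.9% higher and 26.5% lower of all genes, with a median of -0.01. Among abundant genes, 36.6% were higher and 29.4% lower. The 13 genes higher at 16 h, PSMB2, PSMB3, PSMB7, PSMC4, PSMC5, PSMD2, PSMD3, PSMD5, PSMD6, PSMD8, PSMD9, PSMD11 and PSMD12, were also higher at 0 h, in separate libraries of both kinds of cells. PSMA2 and PSMC2 were lower at both times. A further 8 genes, PSMA4, PSMA6, PSMB1, PSMB5, PSMC3, PSMD1, PSMD7 and PSMD13, were higher at 0 h and did not pass the test at 16 h, and PSMC6 was higher at 0 h and lower at 16 h, a call at adjusted p = 0.0496 that was lost under 10 of 17 alternatives. The other 10, PSMA1, PSMA3, PSMA5, PSMA7, PSMB4, PSMB6, PSMC1, PSMD4, PSMD10 and PSMD14, passed at neither time. No subunit gene that passed the test reached 2-fold in either comparison, a size reached by 15.4% of all genes at 0 h and 15.2% at 16 h with an adjusted p under 0.05.

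**Figure D1:**
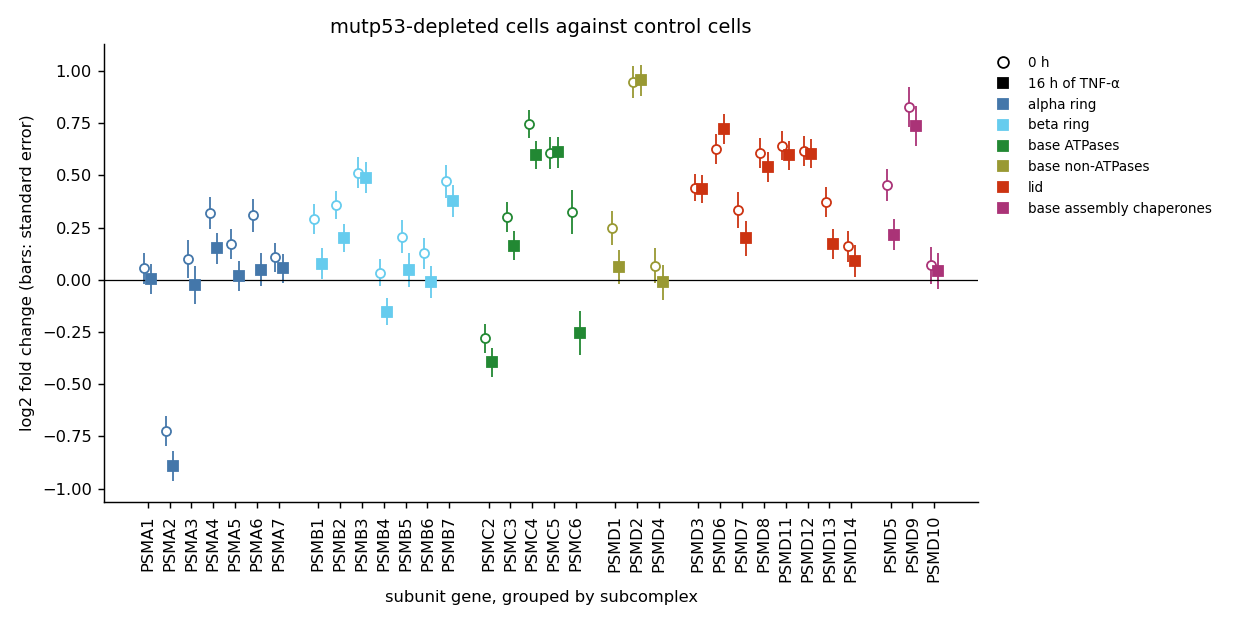
Log2 fold change of 33 subunit genes (PSMC1 left out) in mutp53-depleted against control cells, at 0 h (open circles) and after 16 h of TNF-α (filled squares). Bars are standard errors from limma, and colours mark subcomplexes. Lid genes lie between 0.09 and 0.72, and PSMA2 and PSMC2 lie below 0 at both times.

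The differences were not spread evenly over the particle. At 0 h, 13 of 17 genes of the 19S particle were higher and 1 lower, with a median log2 fold change of 0.44, and 7 of 14 tested genes of the 20S core were higher and 1 lower, with a median of 0.19. At 16 h, the 19S count was 8 higher and 2 lower (median 0.43), and the 20S count 3 higher and 1 lower (median 0.05). Over all genes tested, 27.3% were higher and 25.2% lower at 0 h, and 24.9% and 26.5% at 16 h. Among the abundant genes, 39% were higher at 0 h and 36.6% at 16 h. The 20S count of higher genes at 16 h did not exceed these shares. The summed 19S reads were 25575 and 24742 normalized reads in control cells and 34393 and 35575 in mutp53-depleted cells at 0 h, and 28281 and 29970 against 38090 and 39879 at 16 h. All 4 depleted libraries lay above all 4 control libraries. The summed 20S reads were 22695 and 20972 in control and 23736 and 24993 in depleted cells at 0 h, and 24088 and 24628 against 24410 and 25597 at 16 h, so that at 16 h the groups overlapped. These sums are descriptions, and the difference between both particles was not tested. It was also not separated from the position of the genes in the genome. Of the 19S genes, PSMC4, PSMC5, PSMD2, PSMD3, PSMD6, PSMD8, PSMD11 and PSMD12 had neighbouring genes with a median effect of at least 0.3, averaged over both times. No 20S gene did in the averaged effects, but at 0 h alone the neighbours of PSMB3 had a median of 0.45. With the median of the neighbours subtracted (below), PSMC6, PSMD1, PSMD3, PSMD6, PSMD8 and PSMD11 lost the higher call at 0 h. All 7 20S genes kept it, and PSMA7 and PSMB6 gained one. More 20S than 19S genes were then called higher at 0 h. For PSMB3 the median subtracted was that of both times, -0.003. At 16 h PSMC4, PSMD3, PSMD8 and PSMD11 lost the higher call, as did PSMB2 and PSMB7 of the 20S core. Higher calls were gained at 16 h by PSMC3 and PSMD13 of the 19S particle and PSMA4 and PSMA7 of the 20S core. PSMB4 of the 20S core gained a lower call.

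**Figure D2:**
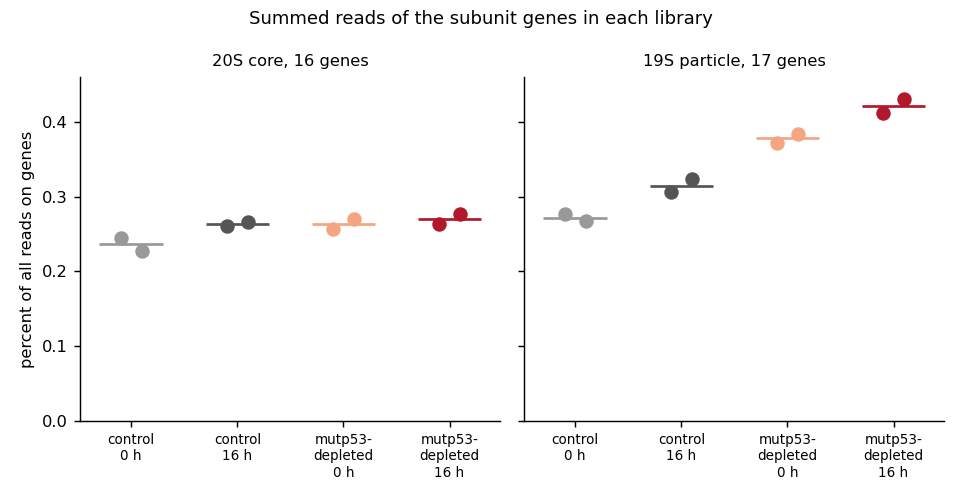
Summed normalized reads of the 16 genes of the 20S core (left) and the 17 genes of the 19S particle (right), as percent of all reads on genes, in each of the 8 libraries (points) with the group mean (lines). The 19S points of mutp53-depleted cells lie above those of control cells at both times, and the 20S points overlap at 16 h.

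The lid, which takes the ubiquitin chain off the substrate, had mostly higher mRNA levels. At 0 h, 7 of its 8 genes were higher (median 0.52), and at 16 h 5 of 8 (median 0.49). The shares of higher genes were 27.3% and 24.9% over all genes, and 39% and 36.6% over the abundant ones. PSMD11, which joins the lid to the core, stood at 2137 and 2169 normalized reads in control cells and at 3309 and 3413 in mutp53-depleted cells at 0 h, and at 2339 and 2640 against 3763 and 3757 at 16 h. The groups did not overlap, and the log2 fold changes were 0.64 ± 0.07 (SE, n = 2 per group, limma adjusted p = 4.8e-07) and 0.60 ± 0.07 (adjusted p = 1.2e-06). PSMD6 was measured at 973 and 920 normalized reads in control cells against 1417 and 1508 at 0 h, and at 1042 and 992 against 1665 and 1687 at 16 h. Its log2 fold changes, 0.63 ± 0.07 and 0.72 ± 0.07 (limma adjusted p = 8.4e-07 and 1.5e-07), were of the same order as those of PSMD12 (0.62 and 0.60) and PSMD8 (0.61 and 0.54), and all these genes were separated from control at both times. With the median effect of the 50 nearest tested genes subtracted before the test, PSMD11 differed by 0.15 and 0.11 (limma adjusted p = 0.08752 and 0.2303), PSMD3 by 0.02 and 0.01 and PSMD8 by -0.05 and -0.12, all without a call, PSMD6 was called at 16 h only, and PSMD12 kept both calls. PSMD14, the deubiquitinase of the lid, differed by 0.16 at 0 h (95% interval -0.00 to 0.32, limma adjusted p = 0.087) and by 0.09 at 16 h (-0.07 to 0.25), and its catalytic partner PSMD7 was higher at 0 h only (0.34 ± 0.09, limma adjusted p = 0.00288, against 0.20 and 0.0603 at 16 h).

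In the base, the largest difference among the subunit genes called was that of PSMD2, the scaffold that receives ubiquitin-like domains of shuttle proteins (chr3:184016886-184026842, plus strand, hg19). It stood at 2753 and 2656 normalized reads in control cells and 5170 and 5267 in mutp53-depleted cells at 0 h, and at 3372 and 3698 against 6393 and 7332 at 16 h. The lowest depleted library was above the highest control library of either time. The log2 fold changes were 0.95 ± 0.07 (limma adjusted p = 8.3e-09) and 0.96 ± 0.07 (adjusted p = 7.2e-09), or 1.93-fold and 1.94-fold in the means. With the neighbours subtracted they were 0.32 and 0.33, and both calls remained (limma adjusted p = 0.001933 and 0.001666). The other large scaffold of the base, PSMD1, was higher by 0.25 ± 0.08 at 0 h (limma adjusted p = 0.0161), a call that was lost when control 0 h replicate A or depleted 0 h replicate B was left out, and by 0.06 at 16 h (-0.11 to 0.23). PSMD4, a ubiquitin receptor, differed by 0.07 (-0.11 to 0.24) and -0.01 (-0.19 to 0.17), intervals that lie below the difference of PSMD2.

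The ATPases of the base, which form a single ring, split by direction. PSMC4 (chr19:40476912-40487671, plus strand, hg19) stood at 1702 and 1630 normalized reads in control cells and 2724 and 2875 in depleted cells at 0 h, and at 2219 and 2167 against 3245 and 3400 at 16 h. PSMC5 (chr17:61905044-61909387, plus strand, hg19) stood at 1250 and 1286 against 1915 and 1951 at 0 h, and at 1288 and 1497 against 2073 and 2167 at 16 h. Both were separated from control at both times, with log2 fold changes of 0.75 ± 0.07 and 0.60 ± 0.07 for PSMC4 (limma adjusted p = 3.9e-08 and 6.2e-07) and 0.61 ± 0.08 at each time for PSMC5 (adjusted p = 2.4e-06). With the neighbours subtracted PSMC4 differed by 0.22 and 0.07 and lost the call at 16 h, and PSMC5 kept both calls at 0.29. PSMC2 went the other way, from 2523 and 2492 in control to 2039 and 2087 in depleted cells at 0 h, and from 2517 and 2773 to 1999 and 2015 at 16 h. Its log2 fold changes fell by 0.28 (limma adjusted p = 0.00204) and by 0.40 (adjusted p = 9e-05).

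The beta ring had 5 of 7 tested genes higher at 0 h (median 0.29) and 3 of 7 at 16 h (median 0.08). Over all genes 27.3% and 24.9% were higher, and over the abundant ones 39% and 36.6%, so that nothing is read from the count at 16 h. PSMB3, a structural subunit, was separated most clearly, at 1308 and 1192 normalized reads in control cells against 1759 and 1810 in depleted cells at 0 h, and at 1246 and 1262 against 1683 and 1845 at 16 h. Its log2 fold changes were 0.51 ± 0.07 (limma adjusted p = 1.2e-05) and 0.49 ± 0.07 (adjusted p = 2.1e-05).

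The 3 catalytic subunits of the beta ring did not move alike. PSMB7, which cuts after basic residues, stood at 1854 and 1644 normalized reads in control cells against 2364 and 2476 in depleted cells at 0 h, and at 2013 and 2187 against 2613 and 2843 at 16 h, with log2 fold changes of 0.47 ± 0.08 (limma adjusted p = 4.9e-05) and 0.38 ± 0.08 (adjusted p = 0.00045). PSMB5, which cuts after hydrophobic residues and is the target of bortezomib, stood at 1176 and 1130 against 1237 and 1431 at 0 h, and at 1351 and 1329 against 1313 and 1459 at 16 h. It passed at 0 h (0.21 ± 0.08, limma adjusted p = 0.0399) but not with edgeR (adjusted p = 0.0865), DESeq2 (0.140) or rescaling by the median ratio (0.0686), and its groups overlapped at 16 h. PSMB6, which cuts after acidic residues, stood at 1706 and 1701 against 1765 and 1959 at 0 h, and at 1601 and 1733 against 1584 and 1727 at 16 h, a difference of 0.13 (-0.03 to 0.29) and -0.01 (-0.17 to 0.15). Of the proteases, PSMB7 alone was called at both times, but with the neighbours subtracted it lost the call at 16 h (0.19, limma adjusted p = 0.05707) and PSMB6 gained one at 0 h (0.26, adjusted p = 0.008733).

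In the alpha ring, 2 of 7 tested genes, PSMA4 and PSMA6, were higher at 0 h and 1, PSMA2, was lower (median 0.11). At 16 h PSMA2 was the 1 alpha ring gene called (median 0.02). Over all genes, 27.3% were higher and 25.2% lower at 0 h, and 24.9% and 26.5% at 16 h, so that nothing is read from these counts. PSMA2 (chr7:42956462-42971805, minus strand, hg19) stood at 1949 and 1780 normalized reads in control cells against 1136 and 1119 in depleted cells at 0 h, and at 2010 and 2153 against 1125 and 1112 at 16 h. No other subunit gene fell as far, with log2 fold changes of -0.72 ± 0.07 (limma adjusted p = 1.4e-07) and -0.89 ± 0.07 (adjusted p = 9e-09). PSMA7, the most abundant subunit mRNA, differed by 0.11 (-0.04 to 0.25) and 0.06 (-0.09 to 0.20).

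Of the 3 base assembly chaperones, PSMD9 and PSMD5 were higher at both times and PSMD10 passed at neither. PSMD9 (chr12:122326637-122355771, plus strand, hg19) stood at 422 and 374 normalized reads in control cells against 699 and 714 in depleted cells at 0 h, and at 384 and 423 against 631 and 715 at 16 h. Among the genes called higher it had the largest difference after PSMD2 at both times, 0.83 ± 0.09 (limma adjusted p = 8.1e-07) and 0.74 ± 0.09 (adjusted p = 3.4e-06). With its neighbours subtracted PSMD9 differed by 0.20 and 0.11 (limma adjusted p = 0.1115 and 0.4047) and lost both calls, and PSMD5 kept both. PSMD5 was higher by 0.45 at 0 h (limma adjusted p = 5.3e-05) and by 0.22 at 16 h (adjusted p = 0.0219, and 0.0919 with DESeq2 as the highest among the alternatives). PSMD10 differed by 0.07 (-0.11 to 0.25) and 0.04 (-0.14 to 0.22).

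**Figure D3:**
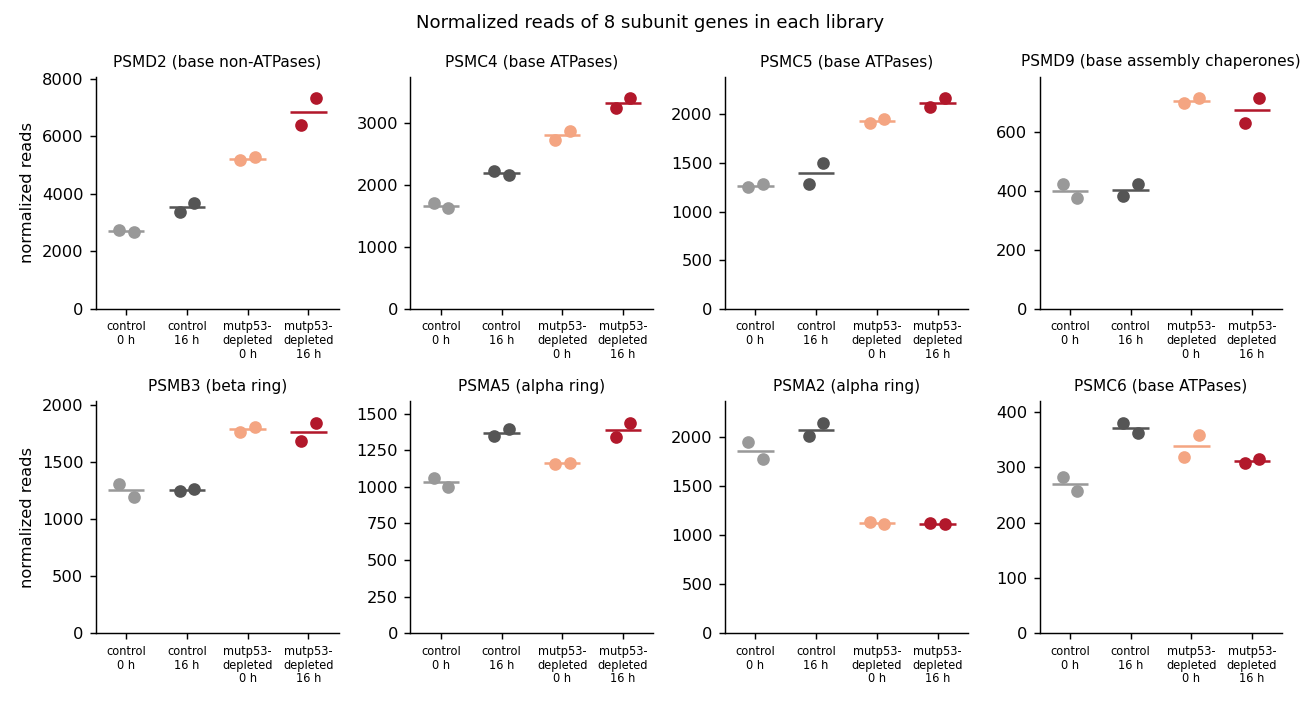
Normalized reads of 8 subunit genes in each library (points, replicates A and B) with the group mean (lines), on axes that start at 0. PSMD2, PSMC4, PSMC5, PSMD9 and PSMB3 lie higher in both groups of mutp53-depleted cells, PSMA2 lies lower, and PSMA5 lies higher after TNF-α in both kinds of cells, and PSMC6 lies higher after TNF-α in control cells.

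The position of a subunit gene in the genome went together with its difference. For each gene tested, the median of the depletion effects of the 50 nearest tested genes on the same chromosome was computed, with the effects of both times averaged. Across the 33 subunit genes, the gene's own log2 fold change and the median of its neighbours had a Pearson r of 0.81 and a Spearman rho of 0.57, as a description across genes that share the same 8 libraries. Over 14799 tested genes the same coefficients were 0.38 and 0.41, and over the 4760 abundant genes they were 0.52 and 0.51.

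The 9 subunit genes whose neighbours had a median of at least 0.3 were PSMC4, PSMC5, PSMD2, PSMD3, PSMD6, PSMD8, PSMD9, PSMD11 and PSMD12, and all 9 were called higher at both times, with a median of 0.62. For PSMD8 the neighbours (0.66) differed by more than the gene itself (0.57), and for PSMD3 by about the same amount (0.42 and 0.44). PSMD2 stood 0.33 above its neighbours and PSMC5 0.29 above. At the other end, the 50 neighbours of PSMA2 on chromosome 7 had a median of -0.82, and PSMA2 itself -0.81. Among the 10 subunit genes with the largest mean difference in size, PSMB3 alone had neighbours near 0 in the averaged effects. Taken by time, the neighbours of PSMB3 had a median of 0.45 at 0 h, where PSMB3 itself differed by 0.51. At 16 h their median was 0.04.

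The other 22 subunit genes had neighbours with a median under 0.3 in size. Of these 22, 13 were called at 0 h and 6 at 16 h, with a median log2 fold change of 0.13. Over all genes tested, 52.5% were called in either direction at 0 h and 51.3% at 16 h. Among the abundant genes, 39% were higher and 29% lower at 0 h, and 36.6% and 29.4% at 16 h. The count at 0 h is near these shares and the count at 16 h below them. In the averaged effects, PSMB3 (0.50, with neighbours at -0.00), PSMD5 (0.34 and 0.01), PSMC3 (0.23 and -0.04) and PSMA4 (0.23 and -0.26) were the clearest cases of a gene above its surroundings. With the times taken apart, PSMB3 stood clearly above its neighbours at 16 h only. PSMD13, a lid subunit, was higher by 0.27 in a region of chromosome 11 whose neighbours had a median of -0.48. It stood at 1458 and 1341 normalized reads in control cells against 1787 and 1832 in depleted cells at 0 h (0.37 ± 0.07, limma adjusted p = 0.00023), and at 1667 and 1687 against 1828 and 1946 at 16 h (0.17 ± 0.07, adjusted p = 0.0527).

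With the median of the neighbours subtracted from every gene before the test, 15 of the 22 calls of a higher level at 0 h remained, and 6 of the 13 at 16 h. Other genes gained calls, so that 17 were higher at 0 h, and 10 higher and 3 lower at 16 h. PSMA7 and PSMB6 gained a higher call at 0 h, and PSMA4, PSMA7, PSMC3 and PSMD13 at 16 h. PSMB4 gained a lower call at 16 h (-0.25, limma adjusted p = 0.005249). PSMB3, PSMC5, PSMD2, PSMD5 and PSMD12 were still higher at both times. The median subtracted was that of the averaged effects, which for PSMB3 lay far below the median of its neighbours at 0 h alone (0.45). The calls lost at both times were those of PSMD3, PSMD8, PSMD9 and PSMD11, and PSMC4, PSMB2 and PSMB7 lost theirs at 16 h, PSMC6, PSMD1 and PSMD6 at 0 h. PSMA2 at 0 h turned to 0.10 (limma adjusted p = 0.282) and at 16 h stood at -0.08 (adjusted p = 0.4057), and PSMC2 was still called lower at 16 h but not at 0 h. Depletion of mutp53 and other differences between the lines cannot be told apart as the source of this shared difference of neighbouring genes. For comparison, the medians of the same neighbours for TNF-α in control cells lay between -0.22 and 0.03.

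**Figure D4:**
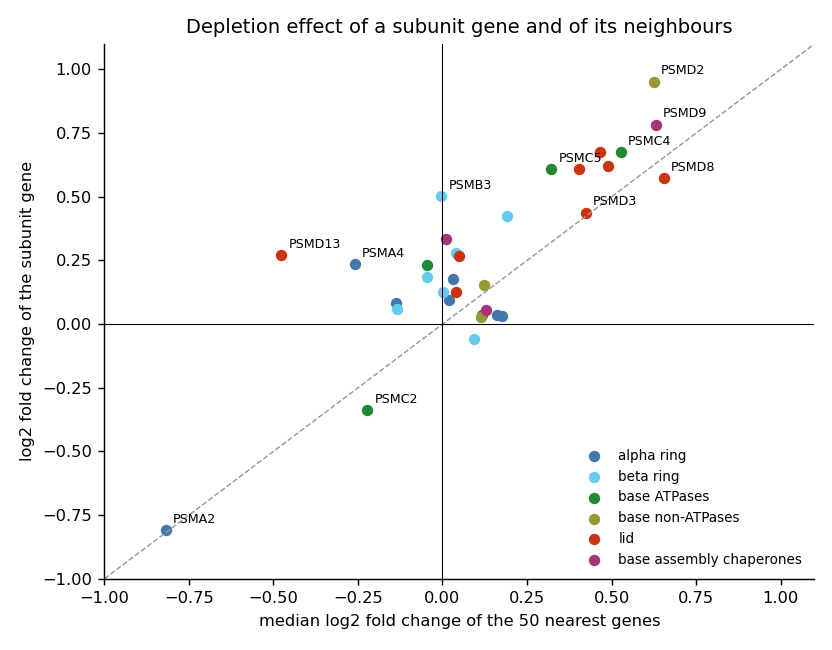
Log2 fold change of 33 subunit genes in mutp53-depleted against control cells (vertical axis, mean of 0 h and 16 h) against the median of the 50 nearest tested genes on the same chromosome (horizontal axis). The dashed line marks equal values. PSMA2 lies on the line at -0.81, PSMD8 lies below it, and PSMB3, PSMA4 and PSMD13 lie well above it.

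The promoters of these genes were searched for motifs of factors known at proteasome genes. RefSeq windows from 250 bases before to 50 after the start site (GRCh38.p14) were matched by symbol for 31 of the 36 genes, in 37 windows, and PSMA7, PSMB1, PSMB6, PSMB7 and PSMD4 had none. The letters TGACNNNGC, the core of the antioxidant response element through which NRF1 and NRF2 act, were found on either strand in 24.3% of the 37 windows, against 13.3% of all 35116 windows and 14.5% of those of genes tested. CGGAAG, a core of ETS factor sites, was in 62.2% of subunit windows, against 19.5% of all and 28.6% of those of genes tested. CCAAT, the box of NF-Y, was in 45.9% against 34.6% of all. Matches of different motifs did not overlap in subunit windows.

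The antioxidant response element core was held by PSMA4, PSMB3, PSMC4, PSMC5, PSMD1, PSMD3, PSMD5, PSMD9 and PSMD12. All 9 of these genes were called higher at 0 h and 7 at 16 h, and of the 20 other tested genes with a window, 11 were higher at 0 h and 5 at 16 h. Over all genes 27.3% and 24.9% were higher, and over the abundant ones 39% and 36.6%. Among the 9, PSMC4, PSMC5, PSMD3, PSMD9 and PSMD12 had neighbours with a median of at least 0.3. With the neighbours subtracted, PSMD1, PSMD3 and PSMD9 lost the call at 0 h, as did PSMC6, PSMD6, PSMD8 and PSMD11 of the 20. The median log2 fold change at 0 h was 0.51 for the 9 and 0.31 for the 20, and the median difference from the neighbours was 0.21 and 0.11. Of 16 tested genes with CCAAT, 10 were higher at 0 h (median 0.31), against 10 of 13 without (median 0.45), and of 19 with CGGAAG, 13 were higher (median 0.34), against 7 of 10 without (median 0.33). The motifs were looked at with these values known, and a match of letters is a description, with no test. The stretches below hold the match in capitals, with up to 25 bases on each side, for 3 genes that were higher at both times also with their neighbours removed, and for PSMA4, which was higher at 0 h in a region that was lower. They are read 5′ to 3′ along the gene, upstream of its start site, and in PSMC5 the core lies on the opposite strand.
PSMB3 (chr17:38752612-38752670, plus strand): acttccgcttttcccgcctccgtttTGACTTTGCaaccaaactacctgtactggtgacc
PSMC5 (chr17:63827639-63827697, plus strand): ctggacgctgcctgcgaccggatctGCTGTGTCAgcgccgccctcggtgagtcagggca
PSMD12 (chr17:67366709-67366767, minus strand): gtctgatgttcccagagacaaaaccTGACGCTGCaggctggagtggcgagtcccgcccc
PSMA4 (chr15:78540635-78540693, plus strand): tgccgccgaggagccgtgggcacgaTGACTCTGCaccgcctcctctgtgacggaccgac
These matches begin 104, 57, 165 and 126 bases before the start site, respectively.

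TNF-α is an inflammatory cytokine that activates NFκB. In control cells, 16 h of TNF-α raised 10 of the 34 subunit genes, PSMA5, PSMA6, PSMB2, PSMB7, PSMC3, PSMC4, PSMC6, PSMD2, PSMD11 and PSMD13, against 11.1% of all genes and 18% of the abundant ones. The median log2 fold change was 0.16, against -0.05 over all genes. With limma, as with edgeR and DESeq2, 0 subunit genes were called lower in control cells. An unadjusted p under 0.05 was reached by 20 of the 34 in either direction, against 36.6% of all genes. When libraries were rescaled by the median ratio, 19 genes were called higher. Without control 0 h replicate B the count was 6.

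In mutp53-depleted cells, TNF-α raised 3 of the 34, PSMA5, PSMC4 and PSMD2, against 9.8% of all genes, and lowered PSMD10, against 16.9%, with a median log2 fold change of 0.06. With edgeR, DESeq2 or rescaling by the median ratio, 7 genes were higher, and PSMD10 was no longer called. The count was 1 without depleted 0 h replicate A or depleted 16 h replicate B and 2 without depleted 0 h replicate B.

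**Figure D5:**
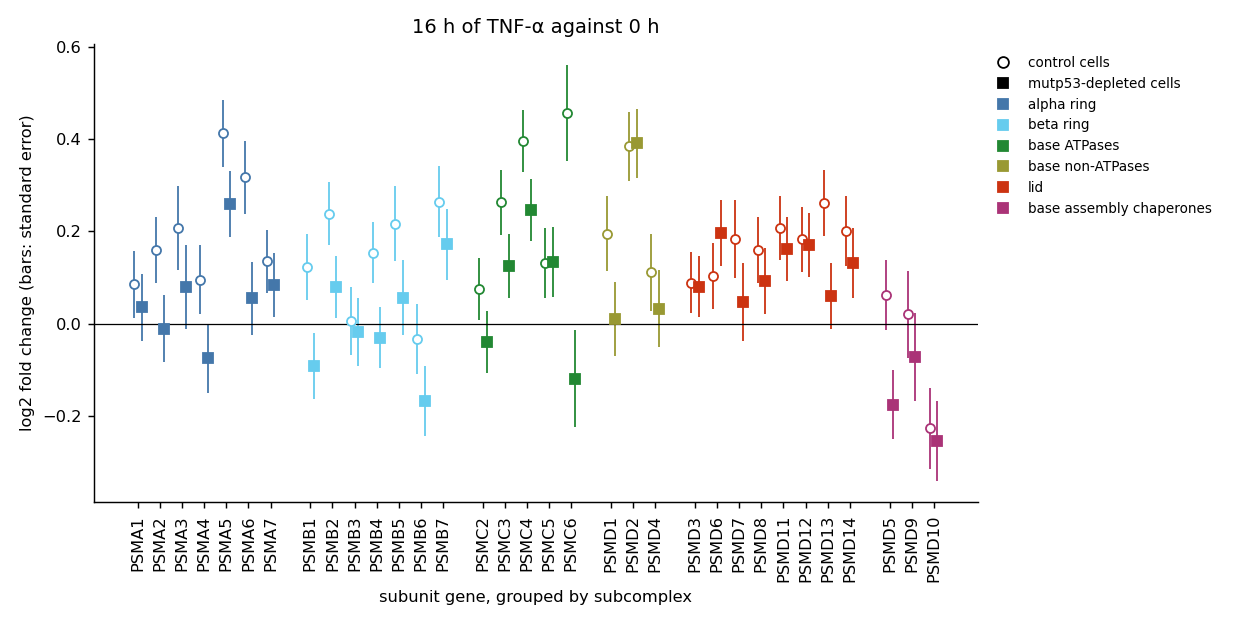
Log2 fold change of 33 subunit genes (PSMC1 left out) after 16 h of TNF-α against 0 h, in control cells (open circles) and mutp53-depleted cells (filled squares). Bars are standard errors from limma, and colours mark subcomplexes. PSMA5, PSMC4 and PSMD2 lie above 0 in both kinds of cells, and PSMC6 lies at 0.46 in control and -0.12 in depleted cells.

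PSMA5 had the clearest rise of the alpha ring. It stood at 1062 and 998 normalized reads at 0 h and 1348 and 1394 at 16 h in control cells, and at 1157 and 1164 against 1341 and 1440 in depleted cells. The log2 fold changes were 0.41 ± 0.07 (limma adjusted p = 0.00027) and 0.26 ± 0.07 (adjusted p = 0.0119), and the 16 h libraries lay above the 0 h libraries of either kind. PSMD2 rose by 0.38 ± 0.07 in control cells and 0.39 ± 0.07 in depleted cells (limma adjusted p = 0.00079 and 0.00071), and PSMC4 by 0.40 ± 0.07 and 0.25 ± 0.07 (adjusted p = 0.0002 and 0.0103). The TNF-α comparisons share their 0 h and 16 h libraries with the depletion comparisons, so that the values are given side by side and not as separate evidence. The highest levels of PSMD2 and PSMC4 were in depleted cells after TNF-α. The lid had 2 of 8 genes higher with TNF-α in control cells (median 0.18), against 11.1% of all genes and 18% of the abundant ones, so that nothing is read from this count. Its median in depleted cells was 0.11.

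The chaperone PSMD10, whose product is also known as gankyrin, was the only subunit gene called lower with TNF-α, in depleted cells. It stood at 613 and 556 normalized reads at 0 h and 489 and 508 at 16 h in control cells, and at 600 and 625 against 529 and 497 in depleted cells. The difference was -0.23 ± 0.09 in control cells (limma adjusted p = 0.0611) and -0.26 ± 0.09 in depleted cells (adjusted p = 0.0351), and in both kinds of cells the groups did not overlap. The call was lost without any 1 of the 4 depleted libraries. In depleted cells 11 of the 34 genes had a negative difference, among them PSMD5 (-0.18) and PSMB6 (-0.17), which were not called.

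To ask whether depletion changed the response to TNF-α, the interaction of both factors was tested. It was negative, meaning a smaller rise or larger fall in depleted cells, for 30 of the 34 genes, or 88.2%, against 53.8% of all genes tested and 53.7% of the abundant ones. The median was -0.12, against -0.03 over all genes. Without control 0 h replicate B the tally was 22 of 34 and the median -0.07, without control 16 h replicate B 29 and -0.07, and without depleted 0 h replicate B 27 and -0.07. With edgeR and with DESeq2 26 genes were negative. A library's deviation from its group mean that all the subunit genes share had an SD of 0.045 on the log2 scale, so that the 34 signs are not independent. PSMC6 was the only gene called, against 2.86% of all genes. PSMC6, an ATPase of the base, stood in control cells at 283 and 258 normalized reads at 0 h and at 381 and 361 after TNF-α, and in depleted cells at 319 and 358 at 0 h and at 307 and 315 after TNF-α. TNF-α raised it in control cells (0.46 ± 0.10, limma adjusted p = 0.00296) and gave -0.12 ± 0.10 in depleted cells (adjusted p = 0.441), for an interaction of -0.58 ± 0.15 (adjusted p = 0.0407). The call was lost under 12 of 17 alternatives, among them each omission of a single library, and the interval of the difference ran from -0.89 to -0.27. The sequence of PSMC6 also recurs elsewhere in the genome, as given above.

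Genes that work with the proteasome were counted from lists of the same pathway. Of the immunoproteasome genes, which replace the catalytic beta subunits under inflammatory signals, TNF-α raised all 3 in control cells, PSMB8 by 0.82, PSMB9 by 1.76 and PSMB10 by 1.18 on the log2 scale, and all 3 in depleted cells, by 0.40, 0.93 and 0.53. Their interaction was called for PSMB10 (-0.65 ± 0.16, limma adjusted p = 0.032) and not for PSMB9 (-0.83 ± 0.25, adjusted p = 0.0971) or PSMB8 (-0.42 ± 0.16, adjusted p = 0.204). Each of these responses in control cells was larger than that of any constitutive subunit gene called. Of 6 activator and inhibitor genes, 5 rose with TNF-α in control cells and 2 in depleted cells. Over all genes, TNF-α raised 11.1% in control and 9.8% in depleted cells, and over the abundant ones 18% and 17.1%. PSME1, of the interferon-inducible activator, was lower in depleted cells at 16 h (-0.57 ± 0.08, limma adjusted p = 8.8e-06), and PSME3, of the nuclear activator, was higher at both times (0.60 and 0.65), with neighbours at 0.46.

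Assembly factors that carry other gene roots were called in both directions. Of 6, 1 (POMP) was higher and 2 (PSMG1 and PSMG3) lower at 0 h, and 1 higher and 3 lower at 16 h, against 27.3% and 25.2% of all genes at 0 h and 24.9% and 26.5% at 16 h, so that nothing is read from these counts. PSMG3, a chaperone of alpha ring assembly, fell by 1.03 and 1.12 on the log2 scale, in a region of chromosome 7 whose neighbours had a median of -0.99. ADRM1, a ubiquitin receptor of the base, was called higher at 16 h only (0.20 ± 0.07, limma adjusted p = 0.0207), and SHFM1, a small lid subunit, at neither time (0.03 and -0.06).

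UBB, a gene of polyubiquitin, was not called in depleted against control cells (-0.13 and -0.08). Of 9 shuttle and p97 factors, 3 were higher and 2 lower at 0 h, and 4 higher and 2 lower at 16 h, near the shares of all genes (27.3% and 25.2% at 0 h, 24.9% and 26.5% at 16 h), from NPLOC4 (0.66 and 0.57) to UBQLN4 (-0.26 and -0.52). Of 7 genes around NRF1 and NRF2, NFE2L1 was higher at both times (0.47 ± 0.07 and 0.53 ± 0.07, limma adjusted p = 1.7e-05 and 4.6e-06), with neighbours at 0.55. DDI2, the protease that activates NRF1, was higher (0.66 ± 0.16 and 0.51 ± 0.16, limma adjusted p = 0.00173 and 0.0116) with neighbours at -0.19 and -0.26, and NFE2L2 was not called (0.18 and 0.06). SYVN1, an E3 ligase for NRF1, was lower at both times (-0.53 at each, limma adjusted p = 0.00077 and 0.00078).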

How the data were processed

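Poly(A) RNA of SW480 cells was sequenced as strand-specific (dUTP) libraries of 50-base single-end reads. The authors aligned them with STAR and counted reads on the exons of RefSeq genes with HOMER, and the processing notes also name edgeR. In the signal column of a library, the authors deposited its reads scaled with 1 factor, so that libraries share a common total. The deposited coordinates and gene models are of hg19, while the study's methods name hg38 for the alignment. The log2 fold changes, p-values and adjusted p-values deposited by the authors for 4 comparisons (12 columns) were not used. Whole reads were recovered for 100% of values, within 0.05 of 1 read.

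Values were tested as log2(value + 1) with limma 3.58.1 (R 4.3.3, trend, empirical Bayes) over the 14800 genes whose mean in the 8 libraries reached 2.5, in 1 fit of 4 group means. Calls had an adjusted p under 0.05 (Benjamini-Hochberg), and ± gives the standard error. In data simulated for the depletion comparison at 0 h, 98 of 100 genes changed by log2 1 and 77 of 100 changed by 0.5 were recovered, of 14797 genes. The simulation changed 200 genes, all with a mean of at least 50, and its biological coefficient of variation was fixed at 0.05. In the data 52.5% of genes were called in this comparison, so that the shares recovered are not its power. Groups came from the labels, and the replicate letters from the column headers. Alternatives were edgeR 4.0.16 and DESeq2 1.42.0 on the recovered reads, another scaling, filter or pseudocount, a block for the replicate letter, subtraction of the median depletion effect of 50 neighbouring genes, and leaving out each library. Values in every library were given for the gene with the largest change called in each subcomplex and comparison, genes with an interaction called, the catalytic beta subunits, PSMA8 and PSMB11. Some genes outside the members are not reported here. PSMC2, PSMC3, PSMC5, PSMD3, PSMD5, PSMD8 and others named beside them were chosen after their values were seen. The members, lists and motifs were chosen with earlier results of these data known. The limit for a count of 0 was 3 reads and covers counting error only, since the reads carry no molecular identifiers. ChIP-seq and GRO-seq data were not analysed here.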

Additional observations from a re-analysis of the deposited data

Results flagged for a closer look

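For PSMC6, the test of a different response to TNF-α in control and mutp53-depleted cells passed, with an interaction of -0.577 on the log2 scale (limma, adjusted p = 0.0407). It was the only one of 34 subunit genes to pass, which is near the 2.86% of all genes that did. The call was lost under 12 of 17 alternatives, among them DESeq2 and each omission of a single library. Of the 50-base stretches in its gene model, 42.5% occur elsewhere in the genome.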

How the results depend on the processing

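Of 1275 values of named genes under the alternatives, 1177 kept their side of the threshold, 64 lost the call with the same sign and 33 gained it. For 1, PSMA2 in depleted cells at 0 h with neighbouring genes removed, the call was lost and the sign changed (0.096, limma adjusted p = 0.2823). Among the 1177, 48 changed sign, all without a call and at most 0.073 in size to begin with. The median over the subunit genes for depletion at 0 h was 0.321, 0.271 with edgeR and 0.209 with neighbours removed, and at 16 h it was 0.157 and 0.107 with neighbours removed. For TNF-α in control cells, rescaling by the median ratio gave 19 genes called in place of 10. In depleted cells, edgeR, DESeq2 and that rescaling each gave 7 in place of 4, with medians of 0.119, 0.125 and 0.124 in place of 0.058. The rescaling moved the median of all genes by 0.043 and 0.065 for these comparisons, and in depleted cells the share of higher genes among all calls from 36.7% to 50.6%. The interaction had 0 genes called with DESeq2, without a filter, with a pseudocount of 0.1 and with the rescaling, and 4 genes at an unadjusted p under 0.05 with limma. The causes were not tested.

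Leaving out 1 library gave 21 to 25 genes called (medians 0.272 to 0.385) for depletion at 0 h, 13 to 17 (0.105 to 0.188) at 16 h, 6 to 13 (0.101 to 0.197) for TNF-α in control cells, 1 to 6 (0.017 to 0.1) in depleted cells and 0 (-0.166 to -0.067) for the interaction. The column headers give the letters A and B without saying whether they pair the samples, and the main fit did not pair them. Correlations of same-lettered deviations ran from -0.0746 for depletion at 0 h to 0.216 for TNF-α in depleted cells, over 11023 genes. A small part shared by letter is therefore not excluded. With the replicate block, 25, 18, 14, 5 and 1 genes were called in the 5 comparisons, in the order above. Reads that recur elsewhere in the genome limit PSMC1, PSMC6, PSMA6, PSMD4 and PSMD2.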
